A study of Mus musculus with 6 samples.

Results

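The splenic Treg cell RNA-seq of this study comprised 6 libraries, and 2 of the 6, control 1 and *Junb*-deficient 1, carried sample titles that lack the lane suffix L001 found on the titles of the 4 others (control 2, control 3, *Junb*-deficient 2 and *Junb*-deficient 3). The 2 libraries without suffix were compared with the 4 libraries with suffix, with genotype as a covariate. Controls were *Junb* fl/fl mice and *Junb*-deficient cells came from *Cd4*-Cre *Junb* fl/fl mice, both on C57BL/6, so that every animal carried floxed *Junb* alleles and only the deficient animals carried Cre. *Cd4*-Cre is active in all cells of the T lineage, which in the deficient animals lack JunB beyond the Treg compartment as well. The paper describes sex-matched mice of 6 to 12 weeks, isolated CD4+CD25+ cells, polyA-selected strand-specific libraries and paired-end sequencing. It names sorting by flow cytometry for the cells of its RT-qPCR, and its RNA-seq methods do not state how the cells were isolated. The selection rests on CD25 and not on a Foxp3 reporter, and neither the number of mice per library nor the meaning of the suffix is given in the sources used here. Each genotype held 1 library without suffix, so within a genotype the comparison has no replicate on that side, and a p-value below measures only the spread between these libraries, which may be technical.

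T cells that meet antigen through the T cell receptor switch on immediate early genes within minutes to hours. The products include the orphan nuclear receptors of the NR4A family and the EGR zinc finger factors, the dimerising bZIP proteins of the AP-1 family (Fos, Jun, Atf, Maf and Batf proteins), and feedback inhibitors of ERK and NF-kB signalling. The same early genes also respond to tissue dissociation and sorting, to growth factors and to stress, and Nr4a transcripts are used as a reporter of recent receptor signalling in T cells. Spleen cell suspensions further hold B cells, macrophages, dendritic cells, granulocytes and red cell precursors, whose own transcripts (MHC class II genes, lysozyme, immunoglobulin, globin) are barely made by mouse T cells.

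Library composition differed along the same line. FPKM (fragments scaled by transcript length and library size) summed to 496684 and 528608 in the 2 libraries without suffix and to between 575628 and 862049 in the other 4. The 100 most abundant genes took 31.1% and 34.996% of this sum without suffix and 40.03% to 50.5% with suffix. Genes listed above 0 numbered 19153 and 18748 without suffix and 16349 to 17074 with suffix, and relative depth, estimated from the smallest FPKM steps, was 1 and 0.807 against 0.356 to 0.525. The deeper pair had 604 genes listed above 0 in both that were listed at 0 in all 4 others, and 19 genes showed the reverse. The Y-linked *Ddx3y* lay at 19.3 to 30.6 FPKM in 5 libraries and at 0.00766 in *Junb*-deficient 3. Transcripts of *Xist*, made from the inactive X of females, lay at 8.30 and 17.9 FPKM in the pair without suffix, at 0.0145 and 8.35 in the controls with suffix, and 0.0239 and 53.98 in the deficient libraries with suffix. Both transcripts were thus present in the libraries without suffix and in control 3, and 1 of them in each of the 3 others.

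The Treg identity of the cells was checked first. Transcripts of *Foxp3*, the lineage factor of Treg cells, lay at 161 FPKM (control 1) and 153 FPKM (*Junb*-deficient 1), against 123, 115, 130 and 135 FPKM in control 2, control 3, *Junb*-deficient 2 and *Junb*-deficient 3 (this order is kept below for the 4 libraries with suffix). Both libraries without suffix were above the 4 others, but the difference of 0.32 ± 0.15 (SE, n = 6 libraries, on log2(FPKM + 1), as are all differences below) had adjusted p = 0.16. *Junb* reached 921 and 180 FPKM without suffix, against 298, 256, 49.1 and 37.8. It was lower in the deficient library or libraries on either side of the comparison, and higher without suffix in both genotypes (difference 1.89 ± 0.18, adjusted p = 0.00108). In such bulk libraries fewer cells of a type and less RNA per cell cannot be told apart.

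Across 11781 genes with a mean of at least 1 FPKM, 1020 (8.66%) were higher and 1393 (11.8%) lower in the libraries without suffix at an adjusted p under 0.05 (limma, 2-sided, Benjamini-Hochberg over all genes tested), and the median gene differed by -0.04. The thresholds that the study states, an unadjusted p under 0.05 and a log2 change beyond 0.5, gave 1536 higher (13.0%) and 2000 lower (17.0%). Both libraries without suffix lay above all 4 others for 2225 genes (18.9%) and below all 4 for 2745 (23.3%). For any 1 gene an exact permutation of 2 among 6 libraries cannot give a 2-sided p below 0.0667. The replicate number was also fitted as a random block, although number 1 is the pair itself, so this fit cannot check the calls. A negative correlation (-0.44) was estimated, which narrows the error of this difference, and the counts were 2120 higher and 2656 lower. Without control 1 they fell to 271 and 124, without control 2 to 634 and 729, without control 3 to 502 and 491, and without *Junb*-deficient 2 to 529 and 589.

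The difference was estimated separately in each genotype, with no library shared between the estimates. Control 1 minus the mean of controls 2 and 3, and *Junb*-deficient 1 minus the mean of *Junb*-deficient 2 and 3, had the same sign in 71.3% of the 11781 genes, with r = 0.57 and rho = 0.58 across genes, which are not independent replicates. The points share base composition and length, and each estimate rests on 1 library without suffix. A test of whether the difference depended on genotype called 14 genes (0.119%), with 1392 at an unadjusted p under 0.05. No member of the activation lists or of the lists of other cell types was among the 14, and the smallest adjusted p of the interaction was 0.168 and 0.176 in these groups of lists.

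**Figure D1:**
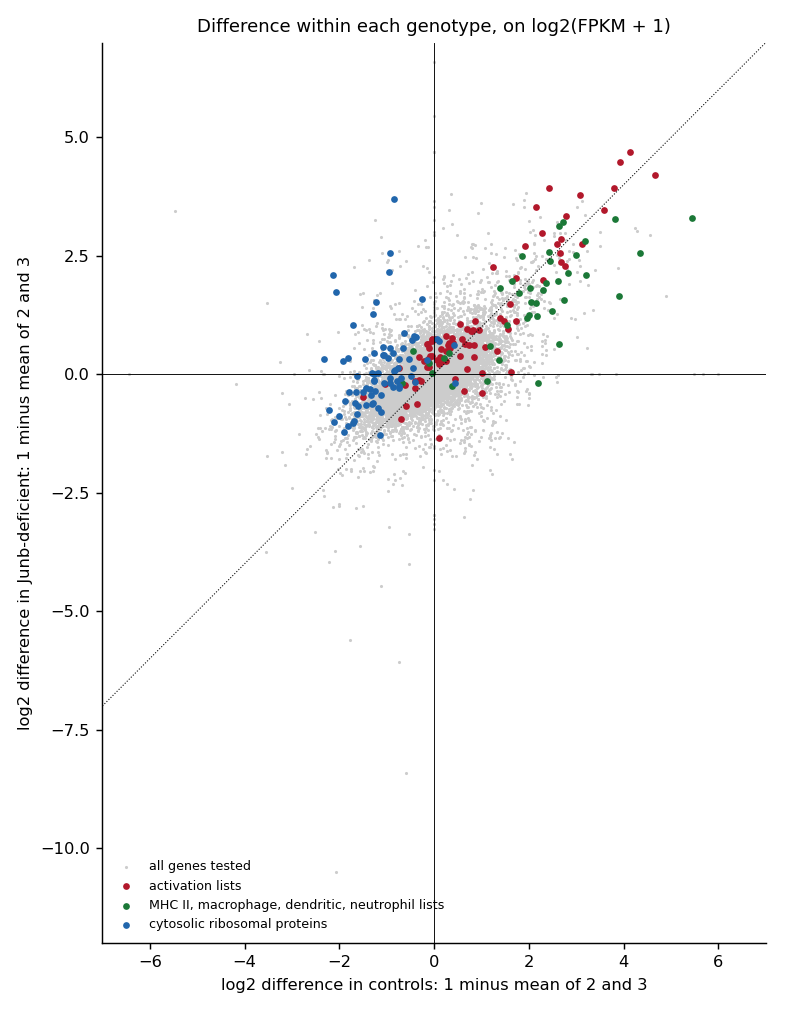
Difference between the library without suffix and the mean of the 2 libraries with suffix, on log2(FPKM + 1), in the controls (x axis) and in the *Junb*-deficient libraries (y axis), 1 point per gene tested (11781), with list members coloured. Activation genes and genes of MHC class II, macrophages, dendritic cells and neutrophils extend to the upper right along the dotted line of equal difference, while ribosomal protein genes lie mostly below 0 in the controls and on both sides of 0 in the *Junb*-deficient libraries.

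The NR4A receptors stood out among the early genes. All 3 family members were higher without suffix in both genotypes. *Nr4a3* reached 126 FPKM (control 1) and 253 FPKM (*Junb*-deficient 1), against 6.71, 5.77, 7.51 and 10.2. Both values of the pair were far above the highest of the 4 others, and the difference was 4.42 ± 0.19 (adjusted p = 0.000148). *Nr4a1*, the family member most used as a marker of receptor signalling, was at 491 and 837 FPKM against 71.1, 69.99, 80.5 and 82.6. The 4 libraries with suffix agreed closely with each other and the pair lay far above them, with a difference of 3.06 ± 0.17 (adjusted p = 0.000203). *Nr4a2* was at 31.9 and 46.7 FPKM against 2.72, 3.04, 2.12 and 2.85 (difference 3.43 ± 0.21, adjusted p = 0.000203). In all 3 the *Junb*-deficient library was the higher of the pair.

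The EGR factors, which share inducing signals with NR4A, differed less. *Egr1* was at 61.4 and 68.0 FPKM against 26.8, 19.3, 30.7 and 28.1, with no overlap and a difference of 1.29 ± 0.17 (adjusted p = 0.0035). *Egr3* was at 9.23 and 13.8 FPKM against 4.01, 3.73, 7.67 and 10.3. Here *Junb*-deficient 3 exceeded control 1, so the groups overlapped, although the fit with genotype passed (0.83 ± 0.20, adjusted p = 0.0253). *Egr2* was at 11.8 and 18.1 FPKM against 16.7, 10.2, 10.03 and 12.7, which overlap, and did not pass (0.25 ± 0.25, adjusted p = 0.515). Of the 7 genes of this list, 6 were tested, 5 were higher and 0 lower, with a median difference of 2.18, and *Egr4* stayed between 0.0451 and 0.399 FPKM.

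Members of the AP-1 family ranged from large differences to none that passed. *Atf3*, a stress- and signal-induced repressor, was at 53.5 and 29.5 FPKM against 0.661, 1.77, 1.11 and 0.306. It was near absent from the 4 libraries with suffix and had the largest difference among the higher genes named by the rule used here (4.43 ± 0.30, adjusted p = 0.000243). *Fosl2*, which encodes the Fos-related protein Fra-2, was at 26.4 and 41.7 FPKM against 0.638, 1.01, 0.671 and 1.18 (4.20 ± 0.24, adjusted p = 0.000203). *Maff*, a small Maf protein without a transactivation domain, was at 36.0 and 49.4 FPKM against 1.29, 2.10, 1.71 and 2.98 (3.87 ± 0.23, adjusted p = 0.000203). For all 3 the pair lay far above the 4 others.

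*Fosb* was at 169 and 157 FPKM against 42.9, 26.1, 61.5 and 24.3 (2.15 ± 0.35, adjusted p = 0.00734). The other small Maf genes were also higher, *Mafk* by 1.30 ± 0.16 (adjusted p = 0.00253) and *Mafg* by 0.68 ± 0.17 (adjusted p = 0.0269), as was *Bach1*, whose product dimerises with small Maf proteins (0.91 ± 0.22, adjusted p = 0.027). The calls of *Mafg* and *Bach1* were lost under 8 and 7 of 16 alternatives, among them length correction and the omission of *Junb*-deficient 2 or of any control library (differences of 0.50 to 0.76 and 0.48 to 1.34). By contrast *Fos*, the archetype of the family, was at 191 and 282 FPKM against 274, 155, 262 and 139. Its groups overlapped and the difference of 0.22 ± 0.33 did not pass (adjusted p = 0.656). *Jun* behaved likewise, at 139 and 226 FPKM against 190, 108, 198 and 90.9 (0.35 ± 0.36, adjusted p = 0.51).

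*Jund* (0.47 ± 0.16, adjusted p = 0.0672), *Batf3* (0.31 ± 0.41, adjusted p = 0.623) and *Bach2*, a repressor that restrains effector programmes (0.84 ± 0.36, adjusted p = 0.134), did not pass either. *Batf*, a partner of JunB at composite sites with IRF4, went the other way. It was at 73.0 and 96.0 FPKM against 98.7, 145, 191 and 179, so both libraries without suffix were below all 4 others (-0.82 ± 0.19, adjusted p = 0.022). Its call was lost under 7 of 16 alternatives, including length correction and the omission of *Junb*-deficient 1, *Junb*-deficient 2, control 1 or control 3 in turn (-0.96 to -0.53). Of the 15 genes of the list 14 were tested, 2 of them (*Atf3* and *Fosl2*) through the libraries without suffix alone. Of the 14, 8 were higher and 1 lower, and the median difference was 0.87. *Fosl1* was at 0.716 and 0.917 FPKM without suffix, was listed at 0 in control 3 and *Junb*-deficient 2, and fell under the minimum for testing.

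To show the sequence beside one of these genes, the RefSeq window from 250 bases before to 50 bases after the annotated start of *Maff* (GRCm38.p6, chr15:79347270-79347569, plus strand, 1 of 3 annotated starts) is given 5′ to 3′. Capitals mark a cyclic AMP response element, TGACGTCA, whose first base lies 29 bases before the start. Of the 3 starts, the window with the most matches to the motifs searched was taken. A match is a description and not evidence of binding.
Maff: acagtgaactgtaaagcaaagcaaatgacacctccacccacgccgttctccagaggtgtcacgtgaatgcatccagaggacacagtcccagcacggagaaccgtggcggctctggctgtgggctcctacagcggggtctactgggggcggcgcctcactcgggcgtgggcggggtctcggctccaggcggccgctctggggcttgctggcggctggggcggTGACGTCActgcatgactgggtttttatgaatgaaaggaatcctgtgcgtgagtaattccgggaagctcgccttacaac

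**Figure D2:**
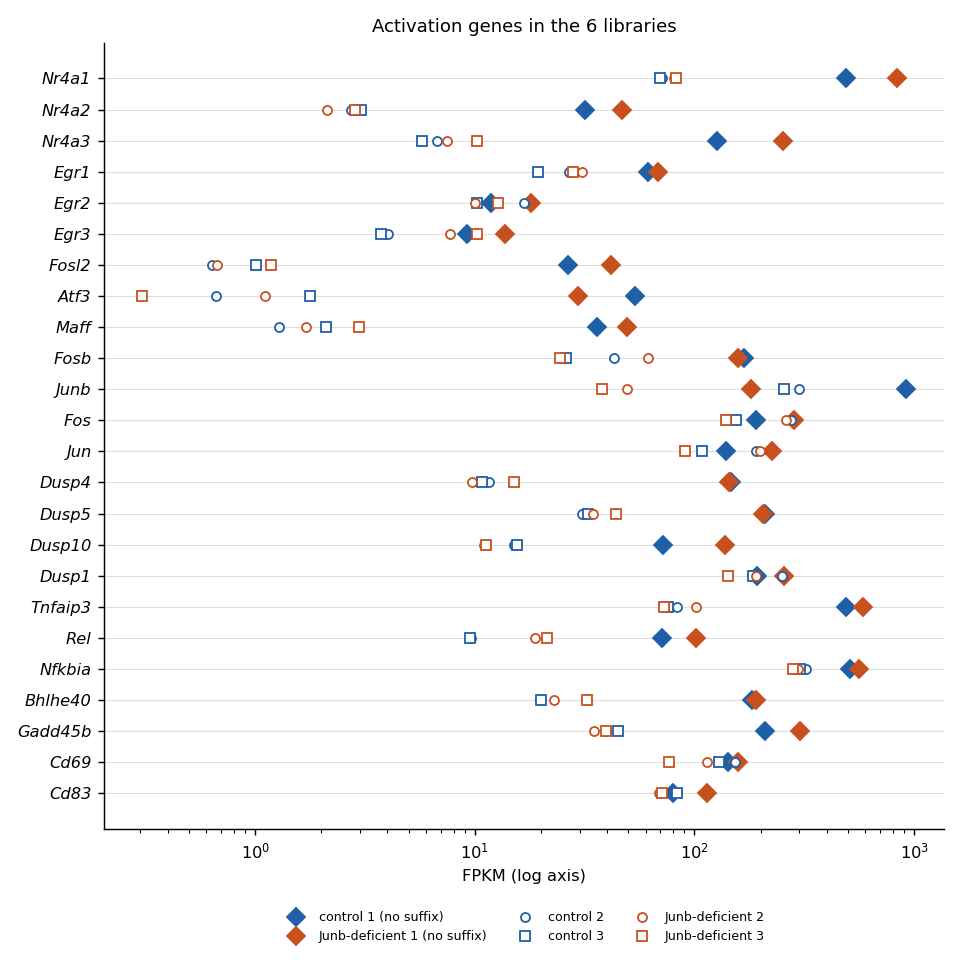
FPKM on a log axis of 24 activation genes in the 6 libraries, with filled diamonds for the 2 libraries without suffix and open symbols for the 4 with suffix, blue for control and orange for *Junb*-deficient. The diamonds stand apart to the right for Nr4a1 (491 and 837 against 69.99 to 82.6), Nr4a3, Fosl2, Atf3, Maff, Dusp4 and Tnfaip3. For Fos, Jun, Egr2, Dusp1 and Cd69 the control 1 diamond lies among the open symbols. The *Junb*-deficient 1 diamond lies to the right of them, as in Fos (191 and 282 against 139 to 274).

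Genes that the T cell receptor induces in lymphocytes split in a similar way. The chemokine genes *Ccl3* and *Ccl4*, whose products attract monocytes and lymphocytes, were both higher. *Ccl3* was at 11.6 and 18.0 FPKM against 1.29, 1.39, 0 and 0.54, and was thus listed at 0 in *Junb*-deficient 2 (3.18 ± 0.36, adjusted p = 0.00207). *Ccl4* was at 23.4 and 17.5 FPKM against 2.17, 3.78, 1.65 and 2.71 (2.60 ± 0.24, adjusted p = 0.00103). Neither gene had an overlap between the groups.

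*Bhlhe40*, a repressor induced by receptor signalling, was at 182 and 190 FPKM against 19.8, 20.1, 22.8 and 32.4 (2.94 ± 0.18, adjusted p = 0.000203). *Gadd45b*, an activator of p38 and JNK kinases, was at 209 and 303 FPKM against 39.7, 44.9, 34.9 and 39.7 (2.63 ± 0.19, adjusted p = 0.000341). The pair lay well above the 4 others in both. *Rgs16*, an inhibitor of chemokine receptor signalling (2.30 ± 0.24), the kinase gene *Pim1* (1.55 ± 0.15) and *Irf4*, the partner of BATF (1.26 ± 0.20), were higher as well.

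Surface activation markers did not pass. *Cd69*, an early marker that retains cells in tissue, was at 143 and 157 FPKM against 152, 129, 114 and 76.9, with overlap (0.38 ± 0.23, adjusted p = 0.267). *Tnfrsf4* (OX40) was at 308 and 322 FPKM against 339, 377, 283 and 246 (0.04 ± 0.19, adjusted p = 0.909). *Cd83*, *Il2ra*, *Tnfrsf9*, *Icos* and *Pdcd1* also had adjusted p from 0.0899 to 0.985, as did *Myc* at 0.36. The cytokine gene *Tnfsf11* (RANKL) was lower (-0.63 ± 0.17, adjusted p = 0.0378). Of the 26 genes of this list 25 were tested, 1 of them (*Ccl3*) through the libraries without suffix alone. Of the 25, 7 were higher and 1 lower, with a median of 0.18.

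Feedback inhibitors of MAP kinases showed the same division within 1 family. *Dusp4*, a nuclear phosphatase that inactivates MAP kinases, was at 146 and 144 FPKM against 11.5, 10.8, 9.74 and 15.1 (3.53 ± 0.19, adjusted p = 0.000203). *Dusp5*, a nuclear phosphatase specific for ERK, was at 210 and 205 FPKM against 30.8, 32.9, 34.5 and 44.1 (2.52 ± 0.16, adjusted p = 0.000231). *Dusp10* was at 71.7 and 138 FPKM against 15.1, 15.5, 10.98 and 11.3 (2.84 ± 0.28, adjusted p = 0.00114). In all 3 the pair was clear of the others. *Dusp1*, the immediate early member, was at 192 and 255 FPKM against 250, 184, 190 and 142, with overlap, and did not pass (0.24 ± 0.24, adjusted p = 0.511). *Dusp6* also did not pass (0.25 ± 0.19, adjusted p = 0.369).

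*Csrnp1*, a nuclear protein first described as induced by axin, was at 151 and 194 FPKM against 23.2, 22.02, 25.8 and 26.0 (2.77 ± 0.14, adjusted p = 0.000199). The 4 libraries with suffix spanned a narrow range here and the pair lay far above it. *Klf10* (1.42 ± 0.18), *Ier2* (0.99 ± 0.16), *Zfp36*, which promotes decay of AU-rich mRNAs (0.88 ± 0.16), *Spred2* (0.86 ± 0.16), *Klf6* (0.65 ± 0.15) and *Ier5* (0.57 ± 0.16) were higher by less. The antiproliferative genes *Btg1* (0.02 ± 0.19) and *Btg2* (0.34 ± 0.15) and the mRNA decay factors *Zfp36l1* (0.20 ± 0.16) and *Zfp36l2* (0.27 ± 0.19) did not pass. All 20 genes of the list were tested, 10 were higher and 0 lower, and the median was 0.54.

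The promoter of *Dusp5* holds paired CArG boxes, the site bound by serum response factor. Its RefSeq window (GRCm38.p6, chr19:53528895-53529194, plus strand) is printed with the adjoining CArG boxes in capitals, whose first bases lie 82 and 72 bases before the start.
Dusp5: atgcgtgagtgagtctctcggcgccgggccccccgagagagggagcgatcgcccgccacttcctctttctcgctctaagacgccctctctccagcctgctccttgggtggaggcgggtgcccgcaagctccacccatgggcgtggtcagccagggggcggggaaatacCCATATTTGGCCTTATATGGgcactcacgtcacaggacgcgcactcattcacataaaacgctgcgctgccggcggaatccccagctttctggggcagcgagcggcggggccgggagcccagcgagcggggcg

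Inhibitors and subunits of NF-kB were mostly higher. *Tnfaip3* encodes A20, a ubiquitin-editing enzyme that ends NF-kB signalling, and was at 489 and 585 FPKM against 83.6, 76.0, 101.3 and 72.5 (2.68 ± 0.18, adjusted p = 0.000256). *Rel*, the subunit c-Rel required for Treg development, was at 71.0 and 101.3 FPKM against 9.62, 9.46, 18.9 and 21.3 (2.53 ± 0.16, adjusted p = 0.000231). In both the groups were far apart, and among the libraries with suffix *Rel* was higher in the 2 deficient libraries than in the 2 controls. *Nfkbid*, an atypical nuclear inhibitor that acts at the *Foxp3* gene in mice, was at 81.8 and 161 FPKM against 31.3, 36.4, 33.8 and 32.1 (1.75 ± 0.23, adjusted p = 0.00321).

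The inhibitor gene *Nfkbia* was at 509 and 560 FPKM against 322, 302, 295 and 281 (0.83 ± 0.17, adjusted p = 0.0153). *Nfkb2*, *Nfkbiz*, *Bcl3*, *Nfkbie*, *Tnip1* and *Nfkbib* were higher by 0.52 to 0.95. *Nfkb1* (0.46 ± 0.18, adjusted p = 0.107), *Relb* (0.53 ± 0.19, adjusted p = 0.0808), *Traf1* (0.09 ± 0.16) and *Icam1* (0.18 ± 0.17) did not pass. *Slfn2*, a gene needed for lymphocyte quiescence in mice, was at 114 and 138 FPKM against 328, 319, 210 and 179 and was the 1 member that was lower (-0.99 ± 0.24, adjusted p = 0.0246). All 20 genes were tested, with 10 higher, 1 lower and a median of 0.53.

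The windows of *Tnfaip3* (GRCm38.p6, chr10:19015361-19015660, minus strand, 1 of 2 annotated starts) and *Rel* (chr11:23770920-23771219, minus strand) are shown because the genes have the largest differences of the NF-kB list. Of the 2 starts of *Tnfaip3*, the window with the most matches to the motifs searched was taken. Capitals mark NF-kB sites, and in *Tnfaip3* also an AP-1 site, TGACTCA. The matches begin 136 (AP-1), 125 and 12 (NF-kB) bases before the start of *Tnfaip3*, and 92 and 91 bases before the start of *Rel*, where both NF-kB matches overlap and run together.
Tnfaip3: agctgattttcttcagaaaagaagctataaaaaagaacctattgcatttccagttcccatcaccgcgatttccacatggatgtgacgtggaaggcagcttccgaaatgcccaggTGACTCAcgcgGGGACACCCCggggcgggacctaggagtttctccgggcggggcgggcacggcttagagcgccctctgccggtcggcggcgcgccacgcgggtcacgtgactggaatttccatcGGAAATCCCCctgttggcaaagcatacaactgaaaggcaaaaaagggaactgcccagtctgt
Rel: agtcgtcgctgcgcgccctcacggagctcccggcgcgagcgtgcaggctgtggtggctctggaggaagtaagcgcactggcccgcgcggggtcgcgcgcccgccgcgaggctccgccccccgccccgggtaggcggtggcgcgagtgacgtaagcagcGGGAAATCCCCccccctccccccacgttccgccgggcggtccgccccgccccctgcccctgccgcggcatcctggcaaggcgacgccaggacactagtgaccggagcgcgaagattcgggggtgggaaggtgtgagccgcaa

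Over the 5 lists of activation genes, 88 genes were in the table and 85 were tested. Of the 85, 40 were higher and 3 lower, against 8.66% and 11.8% of all genes. Both libraries without suffix were above all 4 others for 48 of the 85, against 18.9% of all genes. *Fosl2*, *Atf3* and *Ccl3*, all higher, had means of 0.875, 0.960 and 0.806 FPKM in the libraries with suffix. They reached the minimum for testing only through the pair. Of the 40, 32 could be matched to a RefSeq promoter window. A gene was counted if any of its windows held the motif. An NF-kB site on either strand was found in 12 of these 32 genes (37.5%), against 6.34% of the 7719 tested genes with a window. Of all 32851 windows, counted singly and not by gene, 4.51% held it. By gene, the NF-kB site occurred in 10.5% of the 678 higher genes with a window and in 4.51% of the 821 lower genes. The other motifs were rarer among the 32, at 9.38% for the AP-1 site, 6.25% for the cyclic AMP element and 6.25% for the CArG box, with 4.07%, 3.80% and 1.57% of tested genes. The activation lists include genes known as NF-kB targets, so these shares describe the lists as well as the libraries.

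**Figure D3:**
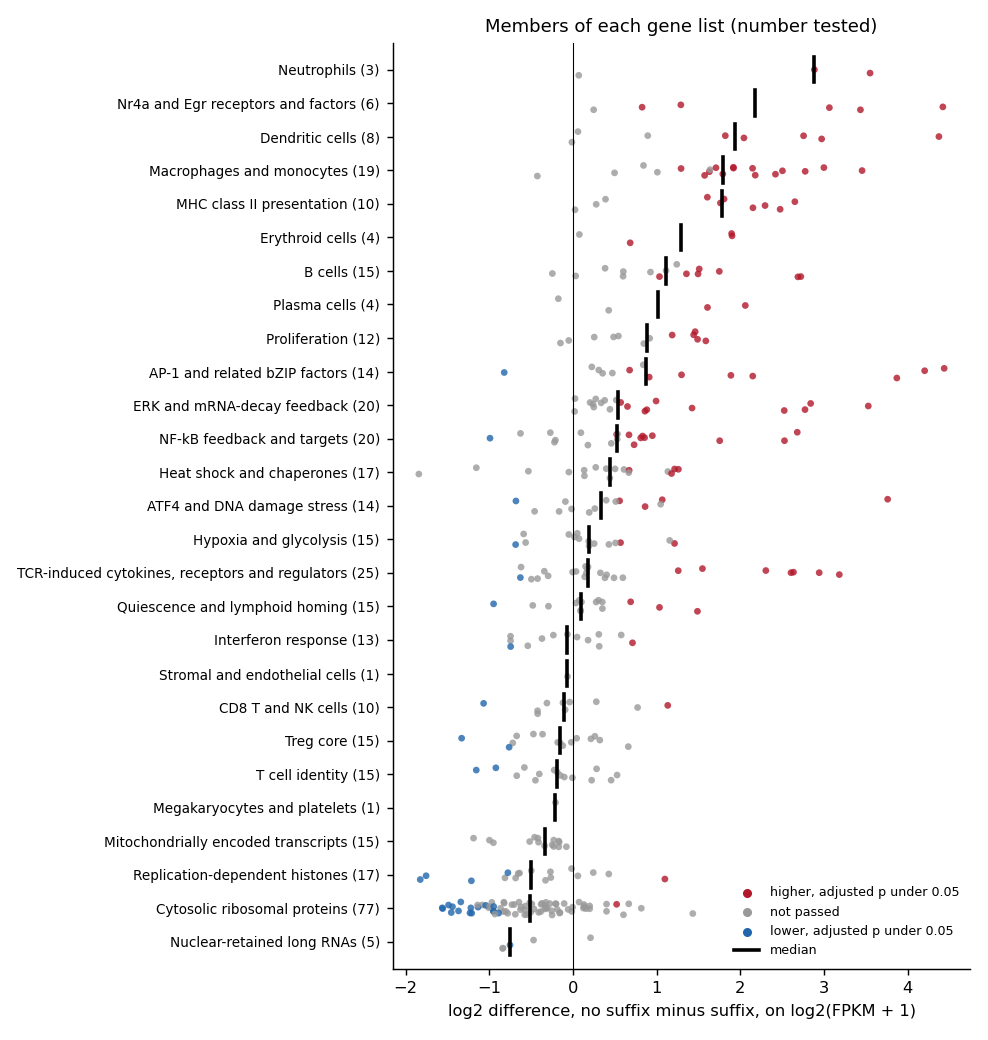
Difference between libraries without and with suffix for each tested member of the 27 gene lists, ordered by median (black bar), with members that passed in red (higher) or blue (lower). The Nr4a and Egr list and the MHC class II list, with medians of 2.18 and 1.78, lie near the top, and ribosomal proteins and nuclear long RNAs (-0.52 and -0.75) at the bottom, while the order of the marker lists depends in part on which members passed the minimum of 1 FPKM (3 of 13 for neutrophils).

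Stress and handling genes went in both directions, with more calls higher than lower. Over 3 chaperone, stress and glycolysis lists, 10 of 46 genes tested were higher and 2 lower. The shares of all genes were 8.66% and 11.8%. The heat-inducible chaperone genes *Hspa1a* and *Hspa1b*, often induced during cell isolation, did not pass. *Hspa1b* was at 7.73 and 14.1 FPKM against 121, 42.3, 37.6 and 13.1, which overlap through *Junb*-deficient 3, and the difference of -1.84 ± 0.63 did not pass (adjusted p = 0.0757). *Hspa1a* was at 3.61 and 7.57 FPKM against 41.3, 12.6, 13.1 and 3.74 (-1.15 ± 0.67, adjusted p = 0.248). Other chaperone genes were higher, among them *Hsph1* at 59.1 and 65.4 FPKM against 31.0, 21.8, 26.8 and 23.0 (1.26 ± 0.18, adjusted p = 0.00481). *Dnajb4* (1.21 ± 0.26), the co-chaperone *Bag3* (1.18 ± 0.20) and *Hspa5*, the chaperone of the endoplasmic reticulum (0.67 ± 0.18), were also higher. In all, 4 of 17 were higher and 0 lower, against 8.66% and 11.8% of all genes, with a median of 0.44.

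Among genes of the integrated stress response and DNA damage, *Cdkn1a*, the p53 target that encodes the cell cycle inhibitor p21, was at 32.6 and 22.7 FPKM against 0.377, 0.453, 1.98 and 2.16. The pair was far above the 4 others (3.76 ± 0.34, adjusted p = 0.00102). The p53 target *Mdm2* did not pass (0.26 ± 0.14, adjusted p = 0.209). *Sesn2* (1.07 ± 0.19), *Socs3* (0.86 ± 0.17) and *Atf4* (0.56 ± 0.16) were higher, while *Ddit3*, which encodes the stress factor CHOP, was lower at 20.9 and 18.8 FPKM against 39.1, 36.9, 27.4 and 27.9 (-0.68 ± 0.15, adjusted p = 0.0177). The list had 4 of 14 tested members higher and 1 lower, against 8.66% and 11.8% of all genes.

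For glycolysis, the hexokinase gene *Hk2* (1.21 ± 0.30, adjusted p = 0.0274) and the glucose transporter gene *Slc2a1* (0.57 ± 0.16, adjusted p = 0.038) were higher and *Pdk1* was lower (-0.69 ± 0.15, adjusted p = 0.0203). The remaining 12 of 15 did not pass, so the shares called were near those of all genes. Among interferon response genes 1 of 13 was higher (*Ifit1*, 0.71 ± 0.19) and 1 lower (*Gbp2*, -0.75 ± 0.15), with a median of -0.07.

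Genes of quiescent and recirculating lymphocytes passed in part, and in both directions. *Ccr7*, the receptor for entry into lymph nodes, was at 230 and 482 FPKM against 129, 133, 102 and 111 (1.49 ± 0.28, adjusted p = 0.0118). The forkhead genes *Foxp1* (1.03 ± 0.16, adjusted p = 0.00625) and *Foxo1* (0.69 ± 0.16, adjusted p = 0.0234) were higher too. *Il7r*, the receptor for the survival cytokine IL-7, was at 95.7 and 112 FPKM against 246, 146, 211 and 214, with no overlap (-0.95 ± 0.22, adjusted p = 0.0214). *Klf2* and *S1pr1*, which T cells lower after activation, did not pass (0.07 ± 0.26 and 0.10 ± 0.18). The counts were 3 higher and 1 lower of 15, against 8.66% and 11.8% of all genes.

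Of 15 core Treg genes 0 were higher and 2 lower, with a median of -0.15 (0.05 without *Junb*-deficient 1), so the share that was lower was near the 11.8% of all genes. *Gpr83*, an orphan receptor enriched in Treg cells, was at 20.1 and 46.1 FPKM against 84.7, 55.2, 103 and 77.8 (-1.33 ± 0.25, adjusted p = 0.0112). *Nt5e*, the ectonucleotidase CD73, was at 39.6 and 30.2 FPKM against 90.5, 66.9, 50.5 and 40.6 (-0.76 ± 0.19, adjusted p = 0.0274). Neither overlapped. *Ctla4* (-0.02 ± 0.18) and *Ikzf2*, which encodes Helios (-0.15 ± 0.16), did not pass.

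Of 15 genes of T cell identity 0 were higher and 2 lower, again a share near the 11.8% of all genes. *Cd3d*, a subunit of the T cell receptor complex, was at 212 and 222 FPKM against 569, 705, 413 and 334 (-1.16 ± 0.24, adjusted p = 0.0157). *Trat1*, an adaptor of the same complex, was lower by a like amount (-0.92 ± 0.24, adjusted p = 0.0335). The partner subunits *Cd3e* (-0.23 ± 0.17, adjusted p = 0.382) and *Cd3g* (-0.40 ± 0.19, adjusted p = 0.169) and the coreceptor gene *Cd4* (0.46 ± 0.19, adjusted p = 0.119) did not pass. The list median of -0.19 changed to 0.07 under quantile scaling. Its summed level was 3209 and 3130 FPKM without suffix and 3526 to 4763 with suffix.

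Transcripts of antigen-presenting cells were higher without suffix in both genotypes. *Cd74*, the invariant chain that guides MHC class II molecules, reached 648 FPKM (control 1) and 753 FPKM (*Junb*-deficient 1), against 113, 97.4, 194 and 189. The lower of the pair was above the highest of the 4 others, and the 2 deficient libraries with suffix were above the 2 controls with suffix (2.29 ± 0.20, adjusted p = 0.00075). The class II chains *H2-Eb1* (2.65 ± 0.26), *H2-Ab1* (2.47 ± 0.30) and *H2-Aa* (2.15 ± 0.27) gave the same order, as in *H2-Eb1* with 225 and 305 FPKM against 26.0, 21.6, 81.6 and 60.4. *Ciita*, the master regulator of class II transcription, was at 3.67 and 6.99 FPKM against 0.327, 0.354, 1.83 and 1.07 (1.76 ± 0.26, adjusted p = 0.00501). This gene reached the minimum for testing only through the pair. *H2-DMb1* and *H2-DMb2* were higher, and *H2-DMa*, *H2-Oa* and *H2-Ob* did not pass. The list thus had 7 of 10 higher and 0 lower, and its summed level was 1405 and 1730 FPKM without suffix and 251 to 536 with suffix.

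Macrophage and monocyte markers were higher at much lower levels. *Lyz2*, encoding the lysozyme of phagocytes, was at 28.9 and 17.1 FPKM against 1.27, 3.73, 0.947 and 2.43 (3.00 ± 0.34, adjusted p = 0.00207). *Mpeg1*, a pore-forming protein of phagocytes, was at 39.4 and 16.4 FPKM against 0.811, 1.21, 1.39 and 2.58 (3.45 ± 0.39, adjusted p = 0.00193). In both control 1 was the higher of the pair. *Tyrobp*, the adaptor DAP12 shared by myeloid and NK cells, was at 111 and 60.0 FPKM against 5.95, 6.9996, 22.9 and 14.9 (2.77 ± 0.44, adjusted p = 0.00661).

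*Sfpi1*, which encodes the myeloid and B cell factor PU.1 (2.50 ± 0.29), the complement gene *C1qa* (2.42 ± 0.31), *Cd68* (2.18 ± 0.21), the growth factor receptor gene *Csf1r* (2.15 ± 0.32) and *Emr1*, the macrophage antigen F4/80 (1.92 ± 0.25), were higher as well. *Ctss*, a cathepsin gene at 159 to 268 FPKM in the 6 libraries, did not pass (-0.43 ± 0.18, adjusted p = 0.122). Of 24 markers 19 were tested, 6 of them through the libraries without suffix alone, and 14 were higher and 0 lower, with a median of 1.79. Without control 1, 5 were higher and the median was 1.53. *Fcgr4* and *Lyz1* were listed at 0 in all 4 libraries with suffix, and *Clec4f*, a marker of liver macrophages, in all 6. The summed level was 563 and 379 FPKM without suffix and 261 to 308 with suffix, a sum in which *Ctss* has a large share.

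Several dendritic cell markers were near absent from the libraries with suffix. *Siglech*, a lectin of plasmacytoid dendritic cells, was at 55.8 and 19.5 FPKM against 0.147, 0.471, 0.508 and 1.91 (4.37 ± 0.48, adjusted p = 0.00178). *Pld4*, an endosomal exonuclease prominent in the same cells, was at 35.3 and 24.2 FPKM against 0.491, 1.48, 1.59 and 2.41 (3.66 ± 0.32, adjusted p = 0.000945). The integrin gene *Itgax*, which encodes CD11c, was at 6.69 and 10.1 FPKM against 0.083, 0.247, 0.0698 and 0.346 (2.97 ± 0.28, adjusted p = 0.00108). In each of the 3 the pair lay above all 4 others.

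*Cd209a* (2.75 ± 0.29), which was listed at 0 in control 2, control 3 and *Junb*-deficient 2, *Flt3* (2.04 ± 0.28) and *Irf8* (1.82 ± 0.24) were higher, and *Zbtb46*, the factor of conventional dendritic cells, did not pass (0.89 ± 0.28, adjusted p = 0.0581). Of 12 markers 8 were tested, 4 of them through the libraries without suffix alone, with 5 higher and 0 lower. The summed level was 258 and 177 FPKM without suffix and 95.2 to 150 with suffix. *Pltp*, a phospholipid transfer protein found by the rule among the 10 highest genes, was at 21.7 and 9.95 FPKM against 0.239, 0.0941, 0.0491 and 0.719 (3.66 ± 0.36, adjusted p = 0.00114). With a mean of 0.276 FPKM in the libraries with suffix, it too reached the minimum for testing only through the pair.

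Neutrophil genes were close to the limit of detection. *S100a9*, a calcium-binding protein that fills neutrophil cytosol, was at 15.8 and 13.4 FPKM against 0, 0.431, 1.17 and 0 (3.55 ± 0.36, adjusted p = 0.00133), and its partner *S100a8* was at 10.7 and 9.95 against 1.06, 0.721, 0 and 0.567 (2.88 ± 0.29, adjusted p = 0.00118). Of 13 markers 3 were tested and 2 were higher, both of which reached the minimum for testing only through the libraries without suffix. *Mpo*, *Retnlg*, *Cxcr2*, *Mmp8* and *Elane* were listed at 0 in all 4 libraries with suffix, which were the shallower ones, and the highest of them in the pair was *Mpo*, at 0.203 and 1.26 FPKM. The list summed to 38.9 and 34.0 FPKM without suffix and to 4.01 to 4.65 with suffix.

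B cell markers were divided. *Ly6d*, a surface protein of B and plasmacytoid cells, was at 61.1 and 43.3 FPKM against 8.63, 6.72, 7.66 and 5.21 (2.72 ± 0.19, adjusted p = 0.000332). *Spib* was higher by 2.69 ± 0.26 and *Cd79a*, part of the B cell receptor, by 1.75 ± 0.37. *Pax5*, the factor that defines the lineage, stayed at 1.17 and 3.16 FPKM and did not pass (0.93 ± 0.31, adjusted p = 0.0713), nor did *Ms4a1* (1.11 ± 0.37, adjusted p = 0.0701) or *Cd79b* (0.03 ± 0.17).

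In this list 7 of 15 tested members were higher and 0 lower, with a median of 1.11. Of the 15, 4 were tested through the libraries without suffix alone, 1 of them higher. The most abundant member, *Ighm*, at 431 to 699 FPKM, did not pass (-0.25 ± 0.18), and the summed level, mostly *Ighm*, was 663 and 577 FPKM without suffix and 496 to 742 with suffix. The plasma cell gene *Igj*, the joining chain of antibodies, was at 6.98 and 31.3 FPKM against 1.26, 4.78, 2.43 and 3.94 (2.06 ± 0.48, adjusted p = 0.0231). Of the plasma cell list 4 of 6 were tested and 2 were higher. Of the 2, 1 was tested through the libraries without suffix alone. *Tnfrsf17* was listed at 0 in all 4 libraries with suffix.

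Globin genes *Hbb-b1* (23.6 and 3.93 FPKM against 1.13, 3.38, 1.39 and 2.39) and *Hba-a1* (8.40 and 1.95 against 0, 0, 0.651 and 1.43) were higher mainly through control 1, and 3 of 4 tested erythroid genes passed, the third being the transferrin receptor gene *Tfrc* (0.68 ± 0.15). Of these, *Hba-a1* was tested through the libraries without suffix alone. The summed erythroid level was 70.04 and 34.7 FPKM without suffix and 19.7 to 29.5 with suffix. For CD8 T and NK cells *Cd8a* was higher at 4.54 and 2.28 FPKM against 1.14, 0.888, 0.841 and 0.930, and *Klrb1c* was lower at 3.84 and 5.51 against 7.13, 12.3, 8.94 and 16.9. *Cd8a* was likewise tested only through the pair. The 8 other tested members did not pass, and the summed level was 119 and 80.5 FPKM without suffix and 85.7 to 158 with suffix. The platelet list (1 of 10 tested, *Itga2b*) and the stromal list (1 of 10, *Pecam1*) had no member that passed, and *Pf4* and *Ppbp* were listed at 0 in all 6 libraries.

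Over the 10 lists of other cells, 125 genes were in the table and 75 were tested, of which 41 were higher and 1 lower (8.66% and 11.8% of all genes). The minimum for testing shaped this count, since 20 of the 75, 15 of them higher, had a mean under 1 FPKM in the libraries with suffix and entered through the pair, and 0 entered through the libraries with suffix alone. The same libraries that were high for these markers were high for *Nr4a1*, *Nr4a3* and *Fosl2*, and macrophages, dendritic cells and B cells also express NR4A, EGR and AP-1 genes. The part of the other cells in the activation values was not tested, nor was that of depth.

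**Figure D4:**
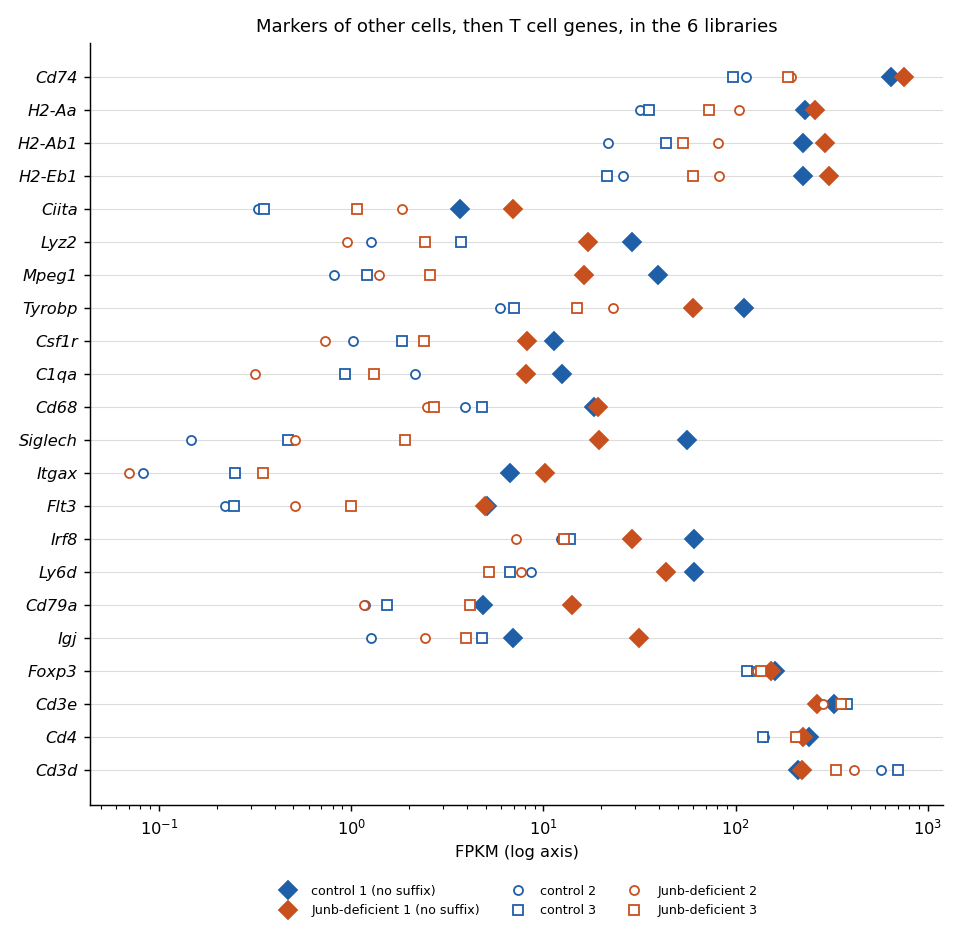
FPKM on a log axis of 18 markers of antigen-presenting, myeloid, dendritic, B and plasma cells, followed by 4 T cell genes, in the 6 libraries. Diamonds (no suffix) lie to the right of all open symbols for Cd74 (648 and 753 against 97.4 to 194), Lyz2 (28.9 and 17.1 against 0.947 to 3.73) and Siglech, lie close to the others for Foxp3 and Cd3e, and lie to the left for Cd3d.

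Cell cycle genes were higher chiefly in control 1. *Mki67* was at 17.8 and 5.96 FPKM against 2.37, 3.48, 2.59 and 4.09 (1.49 ± 0.36, adjusted p = 0.0249). *Top2a* (1.18 ± 0.31), *Ccna2* (1.59 ± 0.41), *Birc5* (1.46 ± 0.42) and *Ube2c* (1.44 ± 0.41) passed as well, the last 2 with overlap. The share higher over all genes was 8.66%. Of 12 tested 5 were higher, and without control 1, control 2 or *Junb*-deficient 2 the count was 0, while *Pcna*, *Tyms* and *Stmn1* had differences of 0.25, -0.15 and -0.05.

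The difference also followed gene length. Across the 11781 genes the difference correlated with summed exon length at rho = 0.316 (0.338 in the controls, 0.216 in the *Junb*-deficient libraries, and 0.345 over protein-coding genes), a description across genes. Of 10 classes of equal size by length, the shortest (36 to 898 bases) had a median difference of -0.42 and the longest (7653 to 31152 bases) of 0.24. In the shortest class 6.62% of genes were higher and 27.0% lower, and in the longest class 15.6% and 2.46%. Median exon length was 4295.5 bases in the higher genes, 1839 in the lower genes and 3341 in all genes tested. The trend with GC content was weaker (rho = 0.109 over the 10741 genes with a GC value).

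Libraries that share the suffix differed less along length. The median of control 2 minus control 3 ran from -0.12 in the shortest class to 0.08 in the longest, and that of *Junb*-deficient 2 minus 3 from 0.10 to -0.04. Removing each library's trend on length gave 875 higher and 1151 lower genes, of which 1691 were among the 2413 called without it. The medians of the Nr4a and Egr (2.21), macrophage (1.91) and MHC class II (1.88) lists then moved little, and those of ribosomal proteins and histones changed from -0.52 to -0.34 and from -0.50 to -0.15.

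**Figure D5:**
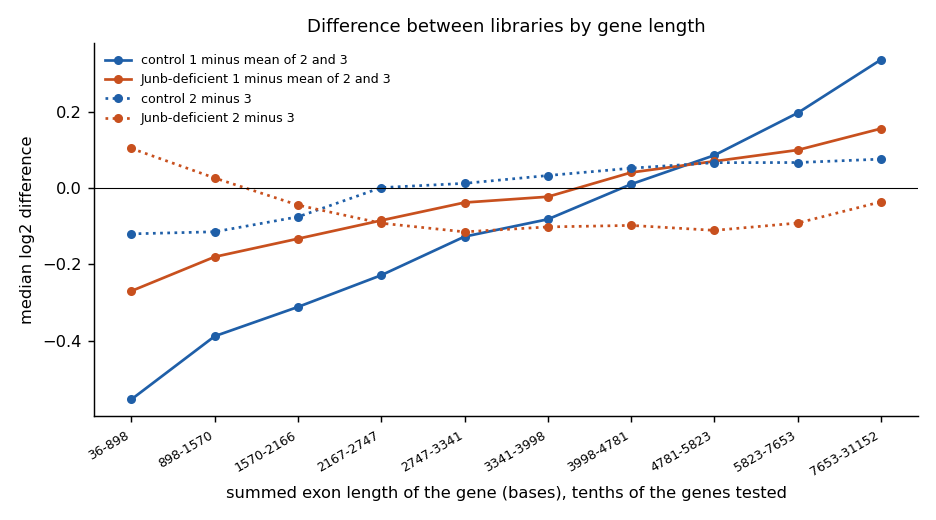
Median difference on log2(FPKM + 1) in 10 classes of genes of equal size by summed exon length (x axis, bases). Solid lines (library without suffix minus the mean of 2 with suffix) rise from -0.55 to 0.34 in the controls and from -0.27 to 0.16 in the *Junb*-deficient libraries, and dotted lines (2 libraries with suffix) stay between -0.12 and 0.10.

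Genes of cytosolic ribosomal proteins have short, abundant transcripts. Of 77 tested, 16 were lower and 1 higher, against 11.8% and 8.66% of all genes and 27.0% lower in the shortest class. *Rps19*, a protein of the small subunit, was at 709 and 646 FPKM against 2705, 2623, 1964 and 1148 (-1.56 ± 0.30, adjusted p = 0.0124), and *Rpl22* at 891 and 854 against 2844, 2939, 2039 and 1401 (-1.34 ± 0.28, adjusted p = 0.0168). In both, controls with suffix had the highest values. The median was -1.14 in the controls and -0.03 in the *Junb*-deficient libraries, and without control 1 only 1 member was lower and 4 were higher. The genes summed to 23330 and 33789 FPKM without suffix and to 37126 to 73091 with suffix.

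The rule for the 10 lowest genes left out unnamed gene models and names that occur more than once. Among the gene models left out, the pseudogene *Gm15387* had a difference of -3.41 (adjusted p = 0.0393) with no overlap. The 10 were all processed copies of ribosomal protein genes, whose reads cannot be told apart with certainty from those of the parent gene. *Rps12-ps3* was at 499.8 FPKM (control 1) and listed at 0 (*Junb*-deficient 1), against 1863, 2367, 1749 and 1198, whereas its parent *Rps12* was at 9.03 and 12.8 FPKM against 25.9, 23.0, 19.2 and 16.2. The copy thus had by far the higher FPKM in 5 libraries. *Rpl17-ps3* was at 577 and 199 FPKM against 3310, 3335, 2495 and 1630 (-2.93 ± 0.29), and *Rpl17* itself at 3.15 and 4.30 against 9.60, 8.66, 9.47 and 5.24. Of 44 tested copies 28 were lower and 0 higher, with a median of -1.11. Over all genes 11.8% were lower and 8.66% higher, and in the shortest length class 27.0% were lower. *Rpl10-ps3*, *Rpl9-ps4*, *Rpl17-ps5*, *Rps2-ps6*, *Rpsa-ps2*, *Rpl19-ps1*, *Rpl34-ps1* and *Rpl9-ps6* complete the 10, with differences from -3.69 to -2.03. These values depend on *Junb*-deficient 1, without which *Rps12-ps3* was at -2.07, *Rpl10-ps3* at -1.78 and *Rps2-ps6* at -0.53, and on control 1, without which they were at -10.5, -5.61 and -4.01. The call of *Rps2-ps6* was lost under 10 of 16 alternatives.

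Histone genes, whose replication-dependent mRNAs lack a polyA tail, had 4 of 17 tested members lower and 1 higher. Over all genes the shares were 11.8% and 8.66%, and in the shortest length class 27.0% were lower. Of the 17 histone genes, 5 had a mean under 1 FPKM without suffix and were tested through the libraries with suffix alone. *Hist1h1e* was at 1.24 and 0.563 FPKM against 9.10, 5.28, 3.74 and 4.28 (-1.76 ± 0.25, adjusted p = 0.00474), and the linker histone *Hist1h1c* was at 45.9 and 23.6 against 20.3, 16.7, 10.7 and 13.4 (1.10 ± 0.17, adjusted p = 0.00638). Of the nuclear long RNAs *Neat1*, the scaffold of paraspeckles, was lower at 11.9 and 16.7 FPKM against 23.2, 29.7, 27.0 and 19.2 (-0.75 ± 0.22, adjusted p = 0.0455), and *Malat1* did not pass (-0.47 ± 0.16, adjusted p = 0.0776). Of 15 mitochondrially encoded transcripts none passed in either direction, with 0 also by the study's thresholds for higher and 1 for lower, and their median of -0.34 became 0.23 under quantile scaling, where 5 were higher.

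Outside some classes, the protein-coding genes with the largest lower values and no overlap were listed after their values had been seen. Left out were ribosomal copies, names beginning with Rpl, Rps, Hist, Ig or Tcr, unnamed gene models and names that occur more than once. *Clec2d*, the ligand of an NK cell inhibitory receptor, was at 51.1 and 55.2 FPKM against 254, 304, 167 and 123 (-1.89 ± 0.26, adjusted p = 0.00402). *Gabarapl2*, a protein of the autophagosome membrane, was at 9.74 and 11.5 FPKM against 33.8, 55.6, 43.4 and 31.5 (-1.82 ± 0.24, adjusted p = 0.00326). *Acyp1*, a small phosphatase, was at 15.3 and 12.5 FPKM against 53.0, 62.5, 42.5 and 29.4 (-1.64 ± 0.20, adjusted p = 0.0024). None of the 3 overlapped between the groups. The pair differed more in *Gpr133*, a receptor gene of the adhesion family at 1.88 and 0.101 FPKM against 8.30, 7.34, 4.96 and 3.15 (-1.89 ± 0.25), and in *Uimc1*, a DNA repair gene at 100.4 and 26.1 FPKM against 284, 138, 174 and 127 (-1.72 ± 0.38).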

How the data were processed

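RNA-seq libraries of 6 Treg samples were compared. The authors aligned paired-end reads to mm9 with TopHat2 and made FPKM values with Cufflinks, per the labels and methods. The deposited FPKM do not give read counts or counting intervals. Any scaling between libraries, the handling of reads with several matches and the use of strand in counting are not given in the sources used here. The columns of libraries numbered 1 were assigned by elimination, as their titles carry no number. Of 37305 genes, 15665 were at 0 in all 6 libraries and 25 had names turned into dates. No columns were left out (0) and 0 pairs of libraries were identical.

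Genes with a mean of at least 1 FPKM (11781, 89.8% protein-coding) entered limma (R 4.3.3, limma 3.58.1, trend option) as log2(FPKM + 1), with lane suffix and genotype as terms, and their interaction in a second fit. A pseudocount of 1 understates the change of low genes. Exon length, position and type came from the GENCODE annotation of the same build, and promoters from RefSeq windows of GRCm38.p6, matched by symbol. NF-kB and CArG motifs, TGACGTCA and TGACTCA were searched on both strands, overlaps allowed.

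The libraries, gene lists and rules were chosen with earlier results of these data known. Genes named are the markers *Nr4a1*, *Nr4a3*, *Fosl2*, *Cd74* and *Lyz2*, *Junb*, *Foxp3*, the first 2 lists, the 10 genes per direction with the largest difference past the test and no overlap, and 3 members of every other list by p. The 10 per direction left out unnamed gene models, names that occur more than once and names turned into dates. Further list members and the lower protein-coding genes were added after their values were seen. Some list members are not reported here by name. Gene names with several identifiers follow the one with the highest mean. Alternatives covered pseudocount, filter, scaling, trend, covariate, length, gene type, a replicate block and each library left out. Libraries of number 1, 2 and 3 deviated from their genotype's mean with correlations across genes of 0.57, 0.42 and 0.24, but number 1 is the pair compared here, and control 2 minus 3 against *Junb*-deficient 2 minus 3 gave 0.05. A fixed block cannot be fitted, so the number entered as a random block. Tests were checked on simulated data. Figures were drawn with Python 3.11.15 and matplotlib 3.10.9.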

Additional observations from a re-analysis of the deposited data

Results flagged for a closer look

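In 14 genes the difference between libraries without and with suffix itself differed between the genotypes (interaction, limma, adjusted p under 0.05). Each rests on 1 library without suffix per genotype. *Rps12-ps3*, a copy of a ribosomal protein gene, was listed at 0 in *Junb*-deficient 1 and had an interaction of -8.43 (deficient minus control). The copies *Rpl10-ps3* (-3.83, listed at 0 in *Junb*-deficient 1) and *Rps2-ps6* (-3.48) went the same way. The ribosomal protein genes *Rps7* (4.54) and *Rpl30* (3.49) went the other way. *Rps7* lay at 19.6 FPKM (control 1) and 282 FPKM (*Junb*-deficient 1), against 37.6, 34.4, 25.2 and 17.0 in the libraries with suffix, and *Rpl30* at 23.8 and 145 against 43.7, 49.0, 24.0 and 23.4. Reads of near-identical copies may be divided differently in each library, and this was not tested. The remaining 9 genes were 3 unnamed gene models and 6 small RNA genes, each of the latter listed at 0 in 5 of the 6 libraries. No group held enough libraries for a test of outliers.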

How the results depend on the processing

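Of 104 genes named by rule, 84 passed the test, and 29 kept their call and direction under every alternative run for them, among them *Nr4a1* (2.78 to 3.56), *Nr4a3* (4.14 to 4.70), *Fosl2* (3.92 to 5.13) and *Cd74* (1.97 to 2.79). *Lyz2* lost its call under 2 alternatives (2.74 to 3.53). The genes that lost their call under 6 or more alternatives were *Egr3*, *Batf*, *Mafg*, *Bach1*, *Rps2-ps6*, *Hk2*, *Slc2a1*, *Nt5e*, *Trat1*, *Klrb1c*, *Igj*, *Hbb-b1*, *Hba-a1*, *Mki67*, *Ccna2*, *Top2a*, *Ifit1*, *Neat1* and *Rpl22*. Leaving out 1 library at a time gave 271 to 1090 higher and 124 to 1462 lower genes, 1245 to 1722 and 1237 to 2554 by the study's thresholds, and a rho with length of 0.221 to 0.348, the lowest without control 1. A fit without the genotype covariate called 562 higher and 534 lower genes. With the replicate block the counts were 2120 and 2656 (estimated correlation -0.44), and all 2413 genes called without it were called again. Number 1 is the pair itself and a negative correlation narrows the error, so this block fit cannot check the calls. Without a filter on low values 244 genes were lower and the rho with length was 0.179. The interaction count was 5 with a pseudocount of 0.1, 1485 without a filter, 84 with a mean of at least 5 FPKM, 29 without a trend and 75 over protein-coding genes, and the cause was not tested. Scaling by median ratio (1168 higher, 1209 lower), quantile scaling (1145, 1303) and length correction (875, 1151) stayed near the counts reported.

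The differences that changed sign had not passed the test. *Pecam1* became 0.0073 with quantile scaling and 0.0014 without control 2. Leaving out control 1 gave the lowest and leaving out *Junb*-deficient 1 the highest value for *Batf3* (-0.40 to 1.02) and *Mmp9* (-0.24 to 0.38). The reverse held for *Egr2* (-0.14 to 0.63), *Fos* (-0.11 to 0.56, and -0.02 without *Junb*-deficient 3), *Jun* (-0.040 to 0.75) and *Itga2b* (-1.04 to 0.60), and mitochondrial *mt-Atp6* ranged from -2.41 to 0.41 and *mt-Co2* from -3.02 to 0.64. Read depth is unknown in counts, so values near 0 FPKM carry no interval. Nothing in the sources used here says whether the libraries came from separate mice, or ties the suffix to a sorting day or sequencing run, and any such cause and the suffix cannot be told apart.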
